A study of Mus musculus with 88 samples.

Results

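Cluster 13 was a group of embryoid body cells that came mostly from the Eed null genotype and had high levels of genes of mesenchyme and extracellular matrix. Its members were the cells that the authors' deposited annotation places in cluster 13 of 22, and there were 226 of them among 4949 kept cells (4.57%). The authors put cluster 13 in their mesodermal class. Genes of mesenchyme and regulators of lateral and cardiac mesoderm were high in it, genes of contracting heart muscle were low, and it is called by its number here.

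Embryoid bodies (EBs) are aggregates in which mouse embryonic stem cells differentiate without added lineage signals. EBs of WT cells (the E14 line) and of cells null for Eed, Jarid2, or Mtf2 were taken at days 0, 4, 7, and 10, and live cells were sorted singly into plate wells. There was 1 plate, sequenced as 1 library, for each genotype and day, so the spread between cultures was not measured, and no test or standard error is given for single cells. Bulk RNA was also sequenced from EBs at days 0, 2, 4, and 7. The lines compared here were Eed null and J1, the WT line described as matched to it. Mtf2 null and Jarid2 null lines and their matched WT lines (labelled pclwt and jm8) entered the same fit. In that series the day 0 columns carry the label mono and those of later days eb. Further bulk RNA came from WT, Mtf2 null, and Jarid2 null cells labelled E14 and directed toward mesoderm or endoderm on monolayers. For the single cells the strain label is E14 in all 4 genotypes, while the methods match the Eed null line to J1, so that genotype and parental line cannot be told apart there.

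EED is a core subunit of Polycomb Repressive Complex 2 (PRC2), which methylates lysine 27 of histone H3 and keeps many developmental genes silent, among them Hox genes and other regulators of the embryo. MTF2 and JARID2 are accessory subunits of different forms of the complex. Mesenchyme is loose tissue of the embryo, derived largely from mesoderm and in the head from neural crest, whose cells have left an epithelium and deposit a matrix rich in collagens. Twist, Snail, and Prrx factors are typical regulators of such cells.

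The members came from 5 of the 16 libraries. At day 10, 165 of 202 Eed null cells were members (81.7%, 95% Clopper-Pearson interval 75.6 to 86.8%), and at day 7, 32 of 319 (10.0%, 6.96 to 13.9%). At day 10, 25 of 264 Jarid2 null cells (9.47%, 6.22 to 13.7%) and 3 of 321 Mtf2 null cells (0.935%) were members, and 1 further member came from Mtf2 null cells at day 0. The Eed null genotype thus gave 197 of the 226 members (87.2%), and the Eed null day 10 library alone gave 165. No Eed null cell at day 0 (0 of 340, which allows a share of up to 0.882%) or day 4 (0 of 320, up to 0.938%) was a member. All 4 WT libraries had 0 members, with the largest of these limits at day 10 (0 of 214, up to 1.40%). These intervals and limits cover counting error only. The Eed null day 10 share was above every other share by more than its interval. Because most members came from 1 library, cluster and library cannot be told apart for values that rest on that library alone.

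Cluster 4, the authors' cardiovascular and mesodermal cluster, was distributed in the opposite way between Eed null cells and WT and Mtf2 null cells. Jarid2 null cells of day 10 were in both clusters, with 9.47% in cluster 13 and 12.5% in cluster 4. Cluster 4 had 324 cells, of which 159 were Mtf2 null, 122 WT, 40 Jarid2 null, and only 3 Eed null. At day 10 it took 42.1% of WT, 24.9% of Mtf2 null, 12.5% of Jarid2 null, and 1.49% of Eed null cells, and at day 7 it took 0 of 319 Eed null cells. The other 37 Eed null cells of day 10 were spread over 7 clusters, with 10 in cluster 10, 10 in cluster 19, and 9 in cluster 16. At day 7, 126 Eed null cells were in cluster 10 and 112 in cluster 16. With only cells of at least 2500 UMIs (unique molecular identifiers, which mark single captured mRNA molecules), the shares of members were 82.4% and 10.8% for Eed null cells at days 10 and 7 and 7.62% for Jarid2 null cells at day 10.

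**Figure D1:**
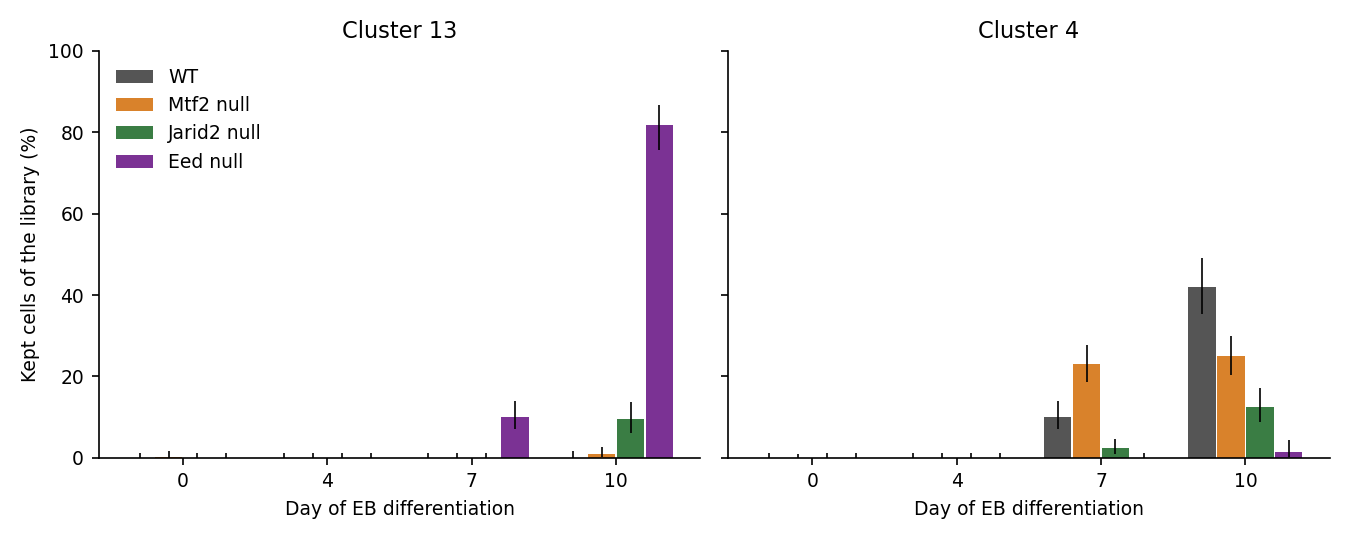
Percent of the kept cells of each library that were in cluster 13 and in cluster 4, by day and genotype, with bars for the share and lines for its 95% Clopper-Pearson interval. Cluster 13 took 81.7% of the Eed null cells of day 10 and 0 of the WT cells, and cluster 4 took 42.1% of the WT cells and 1.49% of the Eed null cells of that day.

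Members held 1206 to 105019 UMIs, with a median of 5103, against 6731 in all other cells and 6137.5 in cluster 4. A pair of members stood apart in depth, a cell of the Eed null day 10 library with 105019 UMIs and a cell of the Mtf2 null day 0 library with 63686. The next had 41805, and this pair held 11.1% of all UMIs of the cluster. The Mtf2 null day 0 cell had 0 UMIs of Col3a1, Prrx1, and Dlk1 and 113 of Tdgf1, 118 of Utf1, and 29 of Nanog, all pluripotency genes. The Eed null cell had 225 UMIs of Dlk1 and 11 of Col3a1 together with 176 of Dppa5a and 48 of Nanog. Per UMI of the added spike-in RNA, the median member of the Eed null day 10 library had 44.4 gene UMIs and the other cells of that library 38.8, and the medians were 251 and 337 in the Eed null day 7 library and 39.9 and 64.7 in the Jarid2 null day 10 library. Counts over the marker lists are given with both cells, and the main changes without them are given below with the pluripotency genes.

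Levels are given as UMI CPM, the summed UMIs of a gene in a group of cells scaled to a common total (CPM, counts per 1000000), and intervals beside them are 95% Poisson intervals for counting error. Eed, the targeted gene, had 0 UMIs in the Eed null members of day 7 and 5 in those of day 10 (4.42 UMI CPM). In the other Eed null cells of those days its level was 2.78 and 0 UMI CPM. The Jarid2 null members of day 10 had 215 UMI CPM of Eed (135 to 325), cluster 4 had 101, and WT cells had 478 at day 0 and 115 at day 10. Eed was thus near 0 in the Eed null members and present in the Jarid2 null members. The list of 12 PRC2 subunits held 1 other gene that was lower in cluster 13 than in all other cells by 2-fold or more, Epop.

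Genes were compared between groups by the ratio of their levels, for genes with at least 20 UMI CPM in the higher group, and a gene was called at 2-fold or more. The cells were clustered on these genes, so what follows describes the cluster and tests nothing. Of 8479 genes, 16.6% were called higher in cluster 13 than in all other cells and 8.72% lower. The 50 leading genes had the largest such ratios among genes with at least 50 UMI CPM and a UMI in at least 20% of members, and their ratios ran from 13.3 to 132 with a median of 19.9. The last gene inside was Rerg (13.3) and the first outside was Cxcl12 (13.2). Of the 50, 49 stayed on the list without the 2 deepest members, and 44 were on a list made from Eed null members alone without the deepest.

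Structural genes of the extracellular matrix led the list. Col3a1, a fibrillar collagen, was at 484 UMI CPM in cluster 13 (449 to 519.9) and at 21.9 in all other cells. Its level was 353 in Eed null members of day 7, 509 in those of day 10, and 615.2 in Jarid2 null members, against 6.03 and 33.5 in the other Eed null cells of days 7 and 10. All 3 groups of members lay above both groups of non-members. Col1a2, the partner chain of type I collagen, was at 918, 691, and 215 in the same groups of members and at 56.1 and 139 in non-members. Postn, which encodes the matrix protein periostin, was at 136, 347, and 166 in members and at 4.64 and 28.7 in non-members. Tgfbi, a matrix protein induced by TGF-beta, was as high in the few other Eed null cells of day 10 (172) as in members of day 7 (172). Of the 21 matrix genes listed, 19 passed the limit on levels, 16 were called higher and 0 lower, with a median log2 ratio of 3.19 where the median of all genes was 0.07. Fn1, fibronectin, was at 637 in cluster 13 and 592 in all other cells and was not called.

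Secreted and membrane proteins formed a further group of leading genes. Dlk1, an imprinted ligand of the Notch family made by progenitor cells, was at 4150.2 UMI CPM in cluster 13 and 182 in all other cells. Ptn, the growth factor pleiotrophin, was at 1137 and 50.2, and Igfbp5, which binds insulin-like growth factors, at 1678 and 65.3. Pdgfra, the receptor for platelet-derived growth factor that marks mesenchymal cells, was at 60.6 in Eed null members of day 7, 283 in those of day 10, and 352 in Jarid2 null members. Every one of these groups exceeded the other Eed null cells, at 10.2 and 38.3. Dnm3os, the noncoding RNA antisense to Dnm3 that carries microRNAs, had the largest ratio, with 107 UMI CPM against 0.810, and the sources used here do not say whether the counting used strand. Col25a1, a membrane collagen, was at 54.1 and 0.837.

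Of the 17 mesenchyme genes, 16 passed the limit, 15 were called higher than in all other cells and 0 lower, with a median log2 ratio of 3.15. Among the transcription factors, Prrx1, a homeobox gene of limb and head mesenchyme, was at 262 UMI CPM against 16.4. Twist1 was at 472 against 51.8, Twist2 at 111 against 6.94, and Snai2, which represses epithelial genes, at 253 against 18.4. The adhesion gene Cdh11 was 9.19-fold higher, at 367, and the filament gene Vim at 1036 against 271. S100a6 and Thy1 were the listed genes without a call.

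Cell by cell, the summed mesenchyme genes separated members from most other cells. The median Eed null member had 4536 CPM of the list at day 7 and 3751 at day 10, the median Jarid2 null member 3475, and the median WT cell of cluster 4 had 3615. The median of the other Eed null cells was 583 at day 7 and 1496 at day 10. No member lacked all the mesenchyme genes, against 8.02% of the other cells of these 2 Eed null libraries. The ranges overlapped, since the highest of these other cells reached 8316 and the lowest Eed null member of day 10 had 469. For the matrix genes the medians were 5591, 4605, and 2417 CPM in the 3 groups of members, 1365 and 2170 in the other Eed null cells of days 7 and 10, and 5099 in WT cells of cluster 4.

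**Figure D2:**
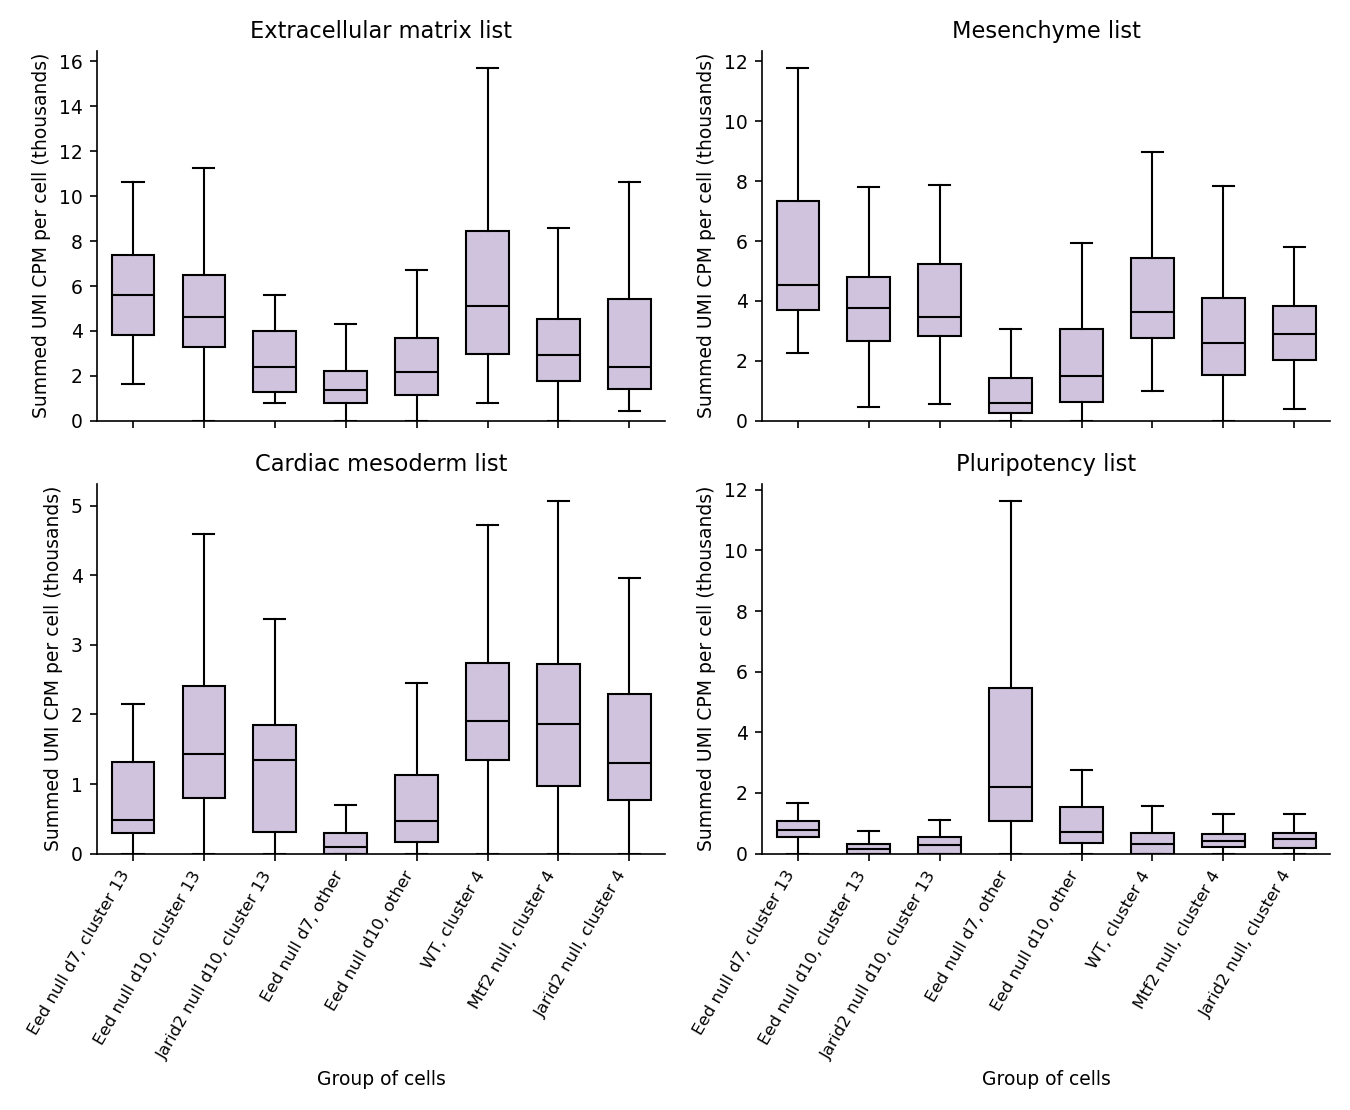
Summed CPM per cell (axis in units of 1000) of the matrix, mesenchyme, cardiac mesoderm, and pluripotency lists in 8 groups of cells, as boxes of the quartiles with the median and whiskers to 1.5 times the interquartile range, without the cells beyond them. Mesenchyme medians of the 3 groups of members lie between 3475 and 4536 CPM, beside 3615 in WT cells of cluster 4 and above 583 and 1496 in other Eed null cells.

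Cells were thinned to 2500 UMIs each, leaving out shallower cells, to compare shares of cells with a UMI at equal depth. Col3a1 was then seen in 50.5% of 198 members (59.3% without thinning), in 1.35% of the other cells of the Eed null day 7 and 10 libraries, in 23.8% of cluster 4, and in 0% of WT cells of day 0, which should lack it. Prrx1 was seen in 46.5% of members (65.5% without thinning), 9.46% of the other Eed null cells, 9.60% of cluster 4, and 1.85% of WT cells of day 0. Dlk1 was seen in 97.0%, 46.3%, 64.2%, and 0.308% of the same groups. Each share in members was above that in WT day 0 cells, which had a median of 8447 UMIs before thinning against 5103 in members.

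Sequence around the starts of these genes is shown for 7 of them, chosen because they span the roles described here, from patterning factors (Hoxd13, Meis1, Hand2, Prrx1) to structural genes (Col25a1, Col3a1, Postn). Each run covers 250 bases before and 50 after the RefSeq start in GRCm38.p6, 5′ to 3′ on the strand of the gene, and capitals mark CG dinucleotides. The first 4 are Hoxd13 at chr2:74667975-74668274 on the plus strand, Meis1 at chr11:19018920-19019219 on the minus strand, Hand2 at chr8:57320733-57321032 on the plus strand, and Prrx1 at chr1:163313601-163313900 on the minus strand.
Hoxd13: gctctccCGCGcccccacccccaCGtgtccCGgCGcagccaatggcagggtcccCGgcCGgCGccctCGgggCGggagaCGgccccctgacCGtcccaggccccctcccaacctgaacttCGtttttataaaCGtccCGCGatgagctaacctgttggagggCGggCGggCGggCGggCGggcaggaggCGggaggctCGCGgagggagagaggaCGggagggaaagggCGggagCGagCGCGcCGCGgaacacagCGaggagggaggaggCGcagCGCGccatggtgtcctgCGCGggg
Meis1: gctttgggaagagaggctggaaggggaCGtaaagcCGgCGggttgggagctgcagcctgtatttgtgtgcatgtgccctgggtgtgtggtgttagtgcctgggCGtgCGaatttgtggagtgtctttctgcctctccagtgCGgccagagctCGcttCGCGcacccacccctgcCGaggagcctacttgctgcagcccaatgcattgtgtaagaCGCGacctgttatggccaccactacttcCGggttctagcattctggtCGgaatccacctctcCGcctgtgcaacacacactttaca
Hand2: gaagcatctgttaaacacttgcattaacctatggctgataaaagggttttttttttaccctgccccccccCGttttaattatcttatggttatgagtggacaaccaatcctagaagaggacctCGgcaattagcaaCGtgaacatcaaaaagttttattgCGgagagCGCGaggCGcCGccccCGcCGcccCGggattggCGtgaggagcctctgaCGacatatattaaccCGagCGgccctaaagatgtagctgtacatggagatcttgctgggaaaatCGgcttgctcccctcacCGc
Prrx1: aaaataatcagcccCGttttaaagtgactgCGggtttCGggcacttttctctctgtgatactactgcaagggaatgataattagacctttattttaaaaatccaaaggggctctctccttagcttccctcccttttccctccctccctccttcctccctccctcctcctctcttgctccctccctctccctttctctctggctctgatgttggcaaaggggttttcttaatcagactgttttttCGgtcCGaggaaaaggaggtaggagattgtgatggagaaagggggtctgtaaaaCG

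The other 3 are Col25a1 at chr3:130180595-130180894 on the plus strand, Col3a1 at chr1:45311288-45311587 on the plus strand, and Postn at chr3:54360857-54361156 on the plus strand.
Col25a1: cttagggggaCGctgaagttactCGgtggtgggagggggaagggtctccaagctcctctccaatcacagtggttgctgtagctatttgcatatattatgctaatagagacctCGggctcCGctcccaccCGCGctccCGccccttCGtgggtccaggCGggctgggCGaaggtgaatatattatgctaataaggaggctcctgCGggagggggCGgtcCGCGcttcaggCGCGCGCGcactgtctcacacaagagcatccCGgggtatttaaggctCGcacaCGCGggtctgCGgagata
Col3a1: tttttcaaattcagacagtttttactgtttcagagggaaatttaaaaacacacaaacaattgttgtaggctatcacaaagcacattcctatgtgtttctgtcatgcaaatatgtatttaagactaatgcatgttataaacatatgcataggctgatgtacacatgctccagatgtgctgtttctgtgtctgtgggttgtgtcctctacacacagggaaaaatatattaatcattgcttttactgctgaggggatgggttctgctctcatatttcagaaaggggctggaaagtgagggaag
Postn: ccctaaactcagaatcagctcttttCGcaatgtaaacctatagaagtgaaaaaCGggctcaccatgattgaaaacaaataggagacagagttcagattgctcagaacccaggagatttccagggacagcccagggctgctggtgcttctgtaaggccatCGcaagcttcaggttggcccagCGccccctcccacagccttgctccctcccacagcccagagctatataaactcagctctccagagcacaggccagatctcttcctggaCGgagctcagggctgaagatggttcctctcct

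These promoters held 37 CG in Hoxd13, 15 in Meis1, 17 in Hand2, 6 in Prrx1, 23 in Col25a1, 0 in Col3a1, and 5 in Postn. Only 1 promoter per gene was kept, that with the most CG where a gene had several. Hoxd13, Meis1, Hand2, and Col25a1 thus had at least 15, as did 37.1% of the 27018 kept promoters of the same length. Of the 4693 genes with at least 50 UMI CPM in cluster 13, 3568 had a promoter there, which is under 80%. Among those 3568, 85.0% held at least 15 with a median of 25, and Meis1, Hand2, and Col25a1 lay below that median. It does not stand for all 4693 genes. Over all promoters, Prrx1, Col3a1, and Postn lay below the median of 8. At least 1 CG was present in 94.6% of all promoters. CG on one strand is CG on the other, and the count describes these windows only. Promoters were at hand for 35 of the 50 leading genes, which is under 80%, so a comparison of the whole list is void. Nrn1 was among those with no entry.

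Genes of lateral and cardiac mesoderm were present in cluster 13. Hand2, a factor of heart and limb mesoderm, was at 342 UMI CPM (313 to 372) against 21.97 in all other cells and 267 in cluster 4. Gata6, a factor of heart and endoderm, was at 317, 28.7, and 253, and Tbx5, a factor of heart and forelimb, at 36.3, 2.00, and 16.5. These regulators were above the other cells and of the same order as in cluster 4. Of the 15 cardiac mesoderm genes in the table, 11 passed the limit against all other cells, 10 were called higher and Actc1, the cardiac actin gene, lower.

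Against cluster 4 the same list went mostly the other way, with 1 of 14 genes called higher (Tbx5) and 7 lower, and a median log2 ratio of −0.79 where that of all genes was 0.02. In that comparison 7.05% of 8341 genes were called higher and 3.08% lower. The summed levels of structural genes of contracting heart muscle were low in cluster 13, with Actc1 at 8.58 UMI CPM against 314 in cluster 4, Tnnt2 at 6.60 against 55.9, and Myl7 at 2.64 against 52.7. The highest cell of cluster 4 had 27780 CPM of the cardiac list and its median cell 1821, against 6112 and 1316 in cluster 13. Summed levels of these genes in cluster 4 can thus rest on few cells, and their shares of cells are not given. Hand1, a factor of lateral and extraembryonic mesoderm, was at 352 against 750.4, Bmp4 at 301 against 757, and Foxf1, a factor of visceral mesoderm, at 21.8 against 102. Of the 15 lateral and extraembryonic genes, 12 passed the limit, 1 was called higher (Vcam1) and 5 lower. The median of the cardiac list was −0.29 against the WT, −0.89 against the Mtf2 null, and 0.13 against the Jarid2 null cells of cluster 4, with 4 lower of 13, 7 of 14, and 1 of 11 tested. Actc1 was among the lower genes each time. Cluster 4 holds 3 Eed null cells, so that cluster and genotype cannot be told apart in these ratios.

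Most mesenchyme and matrix genes were within 2-fold of cluster 4. Of 16 mesenchyme genes tested, 3 (Prrx1, Tgfbi, and S100a6) were called higher in cluster 13 and 0 lower, with a median log2 ratio of 0.31, and of 20 matrix genes, 4 were higher (Col4a1, Col4a2, Col5a2, and Col6a2) and 1 lower (Fn1). Prrx1 was 5.44-fold (4.38 to 6.81) higher in cluster 13. Pdgfra, Snai2, Cdh11, Col1a2, and Postn were within 2-fold, with ratios from 1.08 to 1.69. Against the WT cells of cluster 4 alone, Col1a1, the main chain of type I collagen, was called lower, at 396 against 1173 UMI CPM, and the median log2 ratio of the matrix list was −0.09. Against the Mtf2 null and Jarid2 null cells of cluster 4 it was 0.74 and 0.64, so that its sign depended on the genotype of the cells compared.

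Of the 50 leading genes, 39 were called higher than in cluster 4, with ratios of all 50 from 1.14 to 166 and a median of 3.72, and 28 were higher than in the WT cells of cluster 4, where 8.72% of 8464 genes were higher and 4.6% lower. Against the Mtf2 null cells of cluster 4 (9.88% of 8378 genes higher, 4.14% lower) 44 were called higher, and against its Jarid2 null cells (13.1% of 8561 genes higher, 7.01% lower) 38 were. Since the list was chosen on cluster 13 itself, that share is no result about the list. Among genes with at least 50 UMI CPM and a UMI in at least 20% of cells of the higher group, those with the largest ratios to cluster 4 were Nrn1, which encodes the neuronal protein neuritin (115 UMIs against 1, 166-fold (29.1 to 6593)), Xlr3a (114 against 2), and Col25a1 (82 against 2, 59.01-fold (15.8 to 495)). Sned1, Trap1a, Dnm3os, Hoxd13, Filip1l, Ptn, and Zic1 followed, with ratios from 28.4 down to 10.8. Xlr3a, an X-linked gene with near-identical copies, and Trap1a, an X-linked tumor antigen gene, were at 91.7 and 206 UMI CPM in the other cells of the Eed null day 7 and 10 libraries and at 75.2 and 101 in cluster 13, so that they were not higher in members than in those cells.

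With the same limits applied to cluster 4, the lowest ratios were those of Meg3, Car4, a carbonic anhydrase gene (13.2 against 217 UMI CPM), 5 globin genes, Cfc1, a coreceptor of Nodal (9.90 against 108), Rian, and Cyp26a1. Hba-x, an embryonic globin gene, had a level of 23.1 UMI CPM in members, 352 in cluster 4, and 10944 in all WT cells of day 10. Hba-a1 and Hba-a2 are near-identical copies, and their separate values are uncertain. Of 10 endothelial and blood genes tested against cluster 4, 1 was called higher (Gata2) and 5 lower (Pecam1, Tek, Hbb-y, Hba-x, and Hbb-bh1). The part of cells or free RNA of blood in these ratios was not tested.

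**Figure D3:**
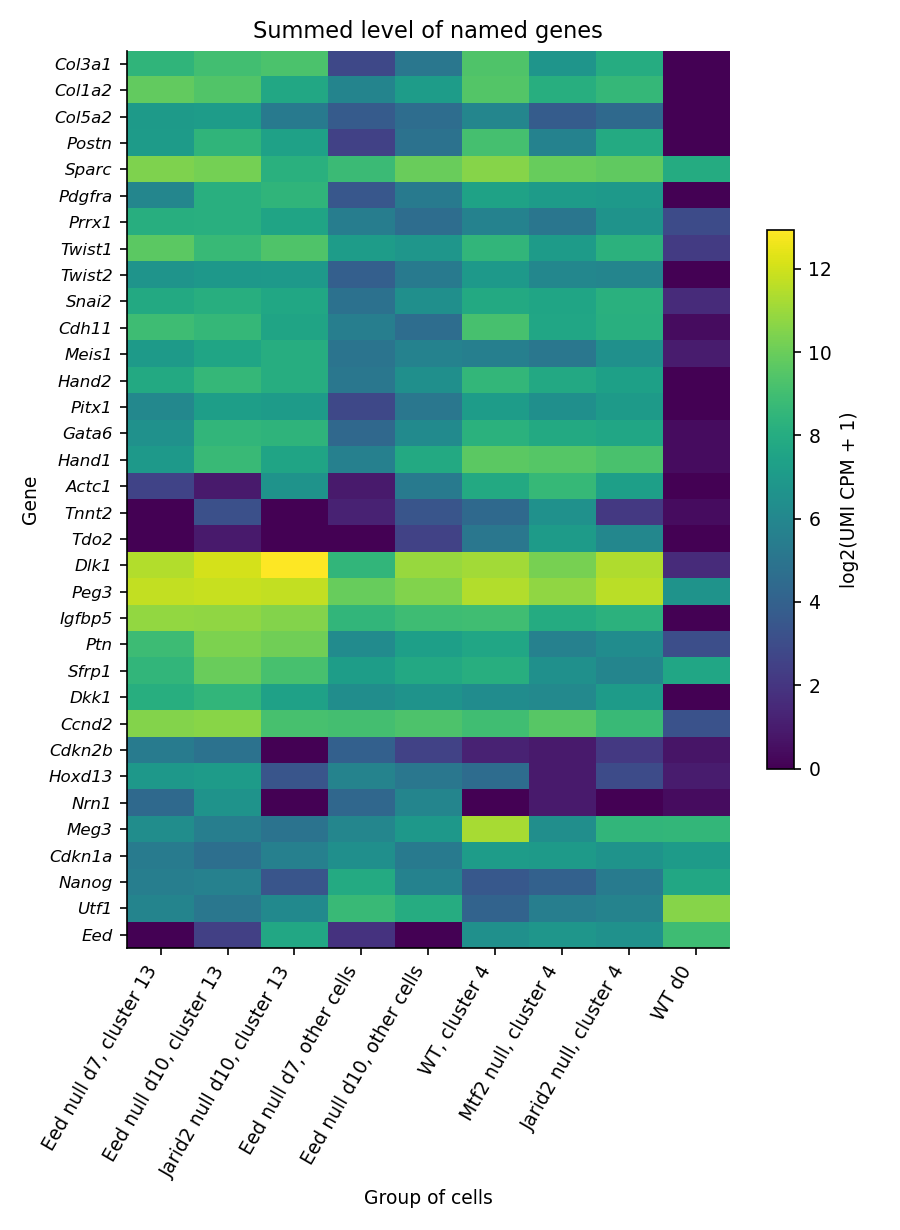
Levels of 34 genes as log2(UMI CPM + 1) in 9 groups of cells, the 3 main groups of cluster 13 members, the other Eed null cells of days 7 and 10, cluster 4 by genotype, and WT cells of day 0. Matrix and mesenchyme genes are high in members and in cluster 4, while summed levels of heart muscle genes are high in cluster 4 and low in Eed null members.

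Markers of other fates differed in direction. The streak gene T was at 1.98 UMI CPM against 42.9 in all other cells, and 3 of 3 primitive streak genes tested were called lower (T, Eomes, and Fgf8). Tbx6, a factor of unsegmented paraxial mesoderm, was at 2.64, while Foxc1, a factor of paraxial and cardiac mesenchyme, was at 117 against 13.2 and Meox1, a somite gene, at 25.1, of which 23 of 38 UMIs came from Jarid2 null members. Of 6 neural crest genes tested, 4 were called higher than in all other cells (Tfap2a, Ets1, Sox9, and Snai2) and 1 lower (Foxd3), and the summed level of the list was 608.9 UMI CPM in cluster 13, 128 in all other cells, and 413 in cluster 4. Sox9, which also marks cartilage progenitors, was at 224 against 24.4, Snai2 is also a mesenchyme gene of the list above, and Sox10, a defining gene of the crest, had 0 UMIs. Of 8 neural ectoderm genes tested, 5 were called higher (Lhx2 and Nes among them) and 3 lower (Otx2, Sox2, and Tubb3), with a summed level of 1428 UMI CPM against 1373 in all other cells and 894 in cluster 4, and Sox1, an early neural gene, had 0 UMIs. The endothelial cadherin gene Cdh5 was at 0.660. Of 14 paraxial mesoderm genes in the table, 4 passed the limit, 3 were called higher (Meox1, Foxc1, and Foxc2) and 1 lower (Tcf15). Only 2 endoderm genes passed the limit, Hhex and Cldn6, and both were called lower.

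Members were next set beside the other Eed null cells of days 7 and 10. Over both libraries together, 165 of 197 members came from day 10 and 287 of 324 other cells from day 7, so that membership, day, and plate cannot be told apart in pooled ratios, and values within each library are given beside them. In the pooled comparison 11.6% of 8572 genes were called higher in members and 7.93% lower. All 50 leading genes were at 2-fold or more there. In the day 7 library alone 48 were, where 13.9% of 8688 genes were called higher and 11.7% lower. In the day 10 library alone 47 were (all but Tgfbi, Tcim, and Nrn1), where 11.9% of 8876 genes were called higher and 12.6% lower, and 46 were in both. The day 10 library had 37 other cells. Col3a1 was 58.6-fold (32.2 to 116) higher in members at day 7 and 15.2-fold (7.33 to 37.95) at day 10, and Postn 29.4-fold (13.8 to 68.1) and 12.1-fold (5.50 to 33.1). The pooled ratio of Postn, 46.6, was above both. With the limits on level and share of cells given above, these genes led the pooled ratios, followed by Col9a1, Ebf3, and Dnm3os. Within day 7, 16 of 16 mesenchyme, 15 of 19 matrix, and 6 of 7 cardiac mesoderm genes tested were called higher, with median log2 ratios of 2.43, 2.46, and 2.19, and Gata4 was the gene called lower. Within day 10, 9 of 17, 10 of 19, and 7 of 11 were called higher, with medians of 1.63, 1.02, and 1.27, and Thy1, Mef2c, and Actc1 were lower. Endothelial and blood genes were called lower in 5 of 7 tested at day 7 and 14 of 17 at day 10. Their summed level was 319 UMI CPM in the other cells of day 7 and 2482 in the 37 of day 10. Of those 37 cells, 10 were in cluster 19, where the list was at 4826, and their part in the day 10 count was not tested.

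Genes of pluripotent cells and of Nodal signaling were lower in members than in the other cells of their library, more of them at day 7. Lefty1 and Lefty2, which encode Nodal inhibitors, were at 15.1 and 136 UMI CPM in day 7 members against 117 and 546 in the other cells of that library, and at 0 and 10.6 in day 10 members against 28.7 and 71.7. Trh, Slc7a7, Utf1, Rpl10l, Triml2, Slc7a3, Fbxo15, and Tdh completed the 10 lowest pooled ratios under the same limits, from 0.0490 to 0.102. Within day 7, 11 of 13 pluripotency genes tested were called lower (median log2 ratio −2.25) and 10 of 13 germ line genes. Within day 10, 4 of 12 pluripotency genes were (Esrrb, Klf4, Tfcp2l1, and Utf1, median −0.91) and 7 of 10 germ line genes. The pooled counts were 13 of 13 and 12 of 13. The day 10 and pooled counts include the Eed null member with 105019 UMIs, which held 176 UMIs of Dppa5a and 48 of Nanog. They are not given without that cell, so the difference between the days may depend on it.

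The members from the library labelled Jarid2 null at day 10 numbered 25 and held 102411 UMIs, so that 1 UMI was 9.76 UMI CPM, and their level of Jarid2, the targeted gene, was 146 UMI CPM against 389 in all of cluster 13 and 142 in cluster 4. WT cells of day 10 had 215 and the WT cells of cluster 4 164, the deleted segment is not given in the sources used here, and these values do not check the label. Against the other Jarid2 null cells of day 10, 41 of 43 leading genes tested were called higher and 0 lower, where 15% of 8293 genes were called higher and 15.1% lower. Dlk1 was at 7802 UMI CPM in these members, above the 4356 of the Eed null members of day 10. Meis1 was at 264, Prrx1 at 186, and Hand2 at 264, beside 191, 283, and 390.0 in the Eed null members. Matrix genes were called higher in 10 of 17 tested and lower in 3, and Col1a2 was at 215 against 691. Nrn1 and Xlr3a had 0 UMIs in these members, which allows up to 29.3 UMI CPM.

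Hox genes, which give cells their position along the body axis, were the list with the largest median log2 ratio after the leading genes among those with at least 10 genes tested. Of 35 Hox genes in the table, 17 passed the limit against all other cells and all 17 were called higher, with a median of 3.35. Hoxd13, the most posterior gene of its cluster, was at 116 UMI CPM in Eed null members of day 7 and 135 in those of day 10, and at 54.7 and 33.5 in the other Eed null cells. The Jarid2 null members had 1 UMI of it, and cluster 4 was at 9.17. Hoxd13 was therefore higher in Eed null cells of both kinds than in cluster 4. Hoxa10 was at 97.6 against 9.80 in all other cells and 26.1 in cluster 4, Hoxa9 at 59.4, 6.02, and 23.8, and Hoxc10 at 52.1, 6.21, and 16.96.

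Against cluster 4, 10 of 17 tested Hox genes were called higher and 1 lower, with a median log2 ratio of 1.32. The lower gene was Hoxb2, an anterior gene, at 30.3 UMI CPM in cluster 13 and 74.3 in cluster 4. Within the Eed null libraries 6 of 17 were called higher in members and 0 lower at day 7 (median 0.41), and 14 of 22 higher and 2 lower at day 10 (median 1.25). In the Jarid2 null library, 22 of 23 tested were higher, and Hoxa5 was at 244 UMI CPM in Jarid2 null members against 41.6 in Eed null members of day 10. Among 22 other homeobox genes, 17 passed the limit against all other cells, 15 were higher and 2 lower. Meis1, a partner of HOX proteins, was at 177 UMI CPM against 8.53 in all other cells and 47.7 in cluster 4, and Irx5, an Iroquois factor, was at 112, 6.59, and 24.3. Barx1 had a ratio of 12.7 to cluster 4.

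**Figure D4:**
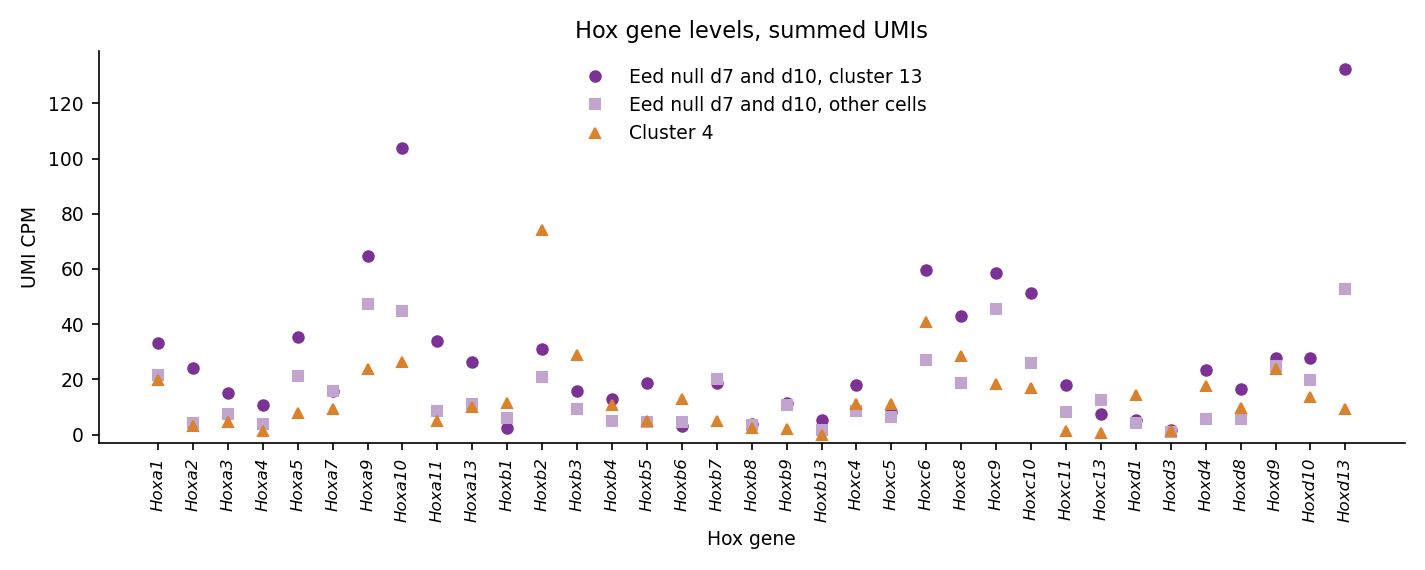
UMI CPM of 35 Hox genes on a linear axis in the Eed null members of days 7 and 10, in the other cells of the same libraries, and in cluster 4. Hoxd13, Hoxa10, and Hoxa9 are above cluster 4 in members, and Hoxb2 is above members in cluster 4.

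Signaling genes were described by pathway. In the retinoic acid list, 5 of 9 tested genes were called higher than in all other cells and 1 lower, and 5 of 8 were higher and 1 lower than in cluster 4. Cyp26b1, which degrades retinoic acid, was at 54.1 UMI CPM against 0.917 in cluster 4, whereas Cyp26a1, another enzyme of that reaction, was at 7.92 against 70.6. Crabp1 and Crabp2, which bind retinoic acid in the cell, were at 371 and 493 against 81.6 and 95.3, and the receptor gene Rarb at 51.5 against 16.96. The 2 degrading enzymes thus went opposite ways between the clusters. In Eed null members, Cyp26b1 had 4 UMIs at day 7 and 78 at day 10.

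All 11 Wnt pathway genes tested were called higher than in all other cells, among them the receptors Fzd1, Fzd2, and Fzd7. Against cluster 4 the median log2 ratio of the list was −0.03, and the 3 genes called higher were secreted inhibitors. Sfrp1 was at 840.5 UMI CPM in cluster 13 against 151 in cluster 4, and Dkk1 at 317 against 79.3. Within the Eed null libraries Sfrp1 was 2.49-fold higher in members at day 7 and 4.46-fold at day 10, and Dkk1 3.44-fold and 3.59-fold. Sfrp2 was the other. In the BMP and TGF-beta list, 8 of 14 tested genes were called higher than in all other cells and 3 lower (Gdf3, Lefty1, and Lefty2). Against cluster 4, Tgfb2, a ligand, was higher at 489.5 against 204, and Bmp4 and Bmp5 were lower.

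Imprinted genes, which are expressed from 1 parental allele, were mostly higher in cluster 13 than in all other cells, with 12 of 19 tested called higher and 3 lower (Meg3, Rian, and Snrpn). Against cluster 4, 4 of 20 were higher (H19, Igf2, Dlk1, and Plagl1) and 5 lower. Dlk1 and Meg3 belong to the same imprinted domain and went opposite ways. Dlk1 was at 4150.2 UMI CPM against 1777 in cluster 4, and Meg3 at 46.8 against 922. The Meg3 level of cluster 4 differed between genotypes, with 2429.5 in WT, 83.9 in Mtf2 null, and 369 in Jarid2 null cells. The Mtf2 null cells of cluster 4 lay closer to cluster 13 than the WT cells did. Plagl1, a zinc finger factor, was at 400.4 in cluster 13 and 14.8 in WT cells of cluster 4. H19 was at 551 in cluster 13 and 444 in the other Eed null cells, so that it was not called between members and those cells.

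Genes of the cell cycle differed in their inhibitors and in 1 cyclin. Ccnd2, a G1 cyclin, had a level of 1414 UMI CPM in members, 623 in cluster 4, and 182 in all other cells. Cdkn2b and Cdkn2a, adjacent genes of inhibitors that PRC2 is known to repress, were at 26.4 and 19.1 in cluster 13, 13.5 and 17.3 in the other Eed null cells, and 1.38 and 0.917 in cluster 4. Cdkn1a, the p21 gene, was at 34.3 against 129.7 in cluster 4 and 195 in all other cells. With Cdkn1a, 11 of 12 p53 targets were called lower than in all other cells, 6 of 10 tested were lower than in cluster 4, and 2 of 8 were lower than in the other Eed null cells within day 7 (Cdkn1a and Trp53inp1) and 2 of 8 within day 10 (Phlda3 and Bax). Phase genes were close to cluster 4, with 1 of 18 S and G2/M genes called lower (Tyms) and 0 higher.

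Pluripotency, germ line, and epithelial genes depended on the 2 deepest members. All 13 pluripotency genes were called lower than in all other cells. Against cluster 4, 7 of 11 were called higher and 1 lower, but without those 2 cells 0 of 6 were higher and 3 lower (Klf2, Tdgf1, and Lin28a), where 7.42% of 8360 genes were called higher and 3.6% lower. Nanog was 3.70 times its level in cluster 4 with them and 0.788 times without them, and Utf1 3.13 and 0.506 times. Zfp42, another pluripotency gene, was at 7.98 and 3.39 times, but without them its level of 17.1 UMI CPM was under the limit of 20 and it was not tested. Of the germ line genes, 6 of 6 tested were higher than in cluster 4 with the deepest cells and 2 of 3 without them (Dazl and Tex15). Epcam, an epithelial adhesion gene, was at 85.1 UMI CPM in cluster 13 and 64.6 without them, 32.5 in cluster 4, and 298 in all other cells, while Krt8 was lower than in cluster 4 (115 against 496). Without those cells, counts against all other cells became 19 of 19 Hox genes higher, 9 of 14 BMP and TGF-beta genes higher (with Bmpr1a), 10 of 12 p53 targets lower (without Phlda3), and 6 of 9 neural ectoderm genes higher. Against cluster 4, 13 of 19 Hox, 5 of 16 mesenchyme, and 5 of 20 matrix genes were then higher, 6 of 14 cardiac mesoderm genes lower, and 40 of the 50 leading genes higher.

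Between days, 165 Eed null members of day 10 were compared with 32 of day 7, with 1 library each, so that day and library cannot be told apart. Of 8764 genes, 11.9% were called higher at day 10 and 8.81% lower, and among the other Eed null cells of the same libraries 16.2% and 11.5% of 8655 were. The day 7 members held 198164 UMIs, so that 3 UMIs were 15.1 UMI CPM. Gata4, a heart factor, had 1 UMI at day 7 and 77 at day 10 (13.5-fold (2.35 to 539.9)), and Kdr, a receptor of vascular and cardiac progenitors, had 1 and 171 (29.97-fold (5.31 to 1191)). In non-members these ratios were 1.64-fold (0.624 to 3.67) and 8.25-fold (5.78 to 11.7). Of the 37 non-members of day 10, 10 were in cluster 19, and their part in the Kdr ratio was not tested. Gata6 was at 90.8 and 369 UMI CPM, Hand1 at 126 and 427, and Pdgfra at 60.6 and 283. The median member had 479 CPM of the cardiac mesoderm list at day 7 and 1435 at day 10.

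Other genes were lower in the later members. Igfbp3, which binds insulin-like growth factors, was at 227 UMI CPM at day 7 and 10.6 at day 10, Lefty2 at 136 and 10.6, and Foxc1 at 318 and 84.02. Trh, Calcrl, and Sema3e were the others of the 5 lowest ratios under the limits on level and share of cells. In non-members Lefty2 had a ratio of 0.131-fold (0.0734 to 0.218), and Calcrl, a receptor component of vessels, went the other way, at 5.25-fold against 0.123-fold in members. With the limits on level and share of cells, which leave out Kdr, the largest ratios besides Gata4 were those of Erdr1, AY036118, Gabbr1, and Rhobtb1, each with 1 UMI at day 7. Of the 50 leading genes, 13 were called higher at day 10, among them Ptn (459 and 1341 UMI CPM), Sned1 (25.2 and 184), and Postn (136 and 347), and 1 was lower, Tril (111 and 52.2). The list was chosen on cluster 13, whose members came mostly from day 10, so that this count is no result about the list. Collagen genes Col3a1 and Col1a2 were within 2-fold between the days.

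The cluster was not uniform. At the finest resolution of the deposited clustering, 143 members formed a cluster of their own, with 9 Eed null cells of day 7, 127 of day 10, and 7 of other genotypes, while the remaining 83 (23, 38, and 22) joined others. These subsets were cut from the same genes, so their differences are described only, here for 135 and 61 Eed null members without the deepest. Day 7 cells were a larger part of the rest than of the larger subset, so that subset, day, and library cannot be fully told apart. Acta2, the smooth muscle actin gene, was at 482 UMI CPM in the larger subset and 123 in the rest, Col3a1 at 643 and 161, and Postn at 421 and 97.8. Itga8, an integrin gene of mesenchyme, was at 54.04 and 9.46, and Alx1, a craniofacial homeobox gene, at 59.6 and 12.6. Twist1 (518 and 489) and Hoxd13 (133 and 161) were alike in both. Epcam was higher in the rest (46.3 and 142), as were Klf2 (18.7 and 56.8) and Car2 (26.5 and 114). The median depth was 5910 UMIs in the larger subset and 4512 in the rest over all members.

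In bulk EBs the leading genes were followed in a measure that the clustering did not use, although the libraries labelled Eed null and J1 are other cultures and not the sorted cells. In bulk RNA, fewer cells of a type and less RNA per cell cannot be told apart. There was 1 sample per line and day, and the lines were compared over days 0, 2, 4, and 7 with the day as a block in limma, with Benjamini-Hochberg adjustment over 15837 genes. Among single Eed null cells, members were 0 of 340 at day 0, 0 of 320 at day 4, and 32 of 319 at day 7. Day 10, which gave 165 of the 197 Eed null members, was not in this bulk series. The comparison of lines over days thus rests partly on days with no members and is no test of the cluster. The spread was estimated over all lines together. These p-values thus measure the scatter of lines over days, and the spread between cultures of a line was not measured. Eed itself was not lower in the libraries labelled Eed null, with 131, 212, 113, and 65.04 CPM at days 0, 2, 4, and 7 against 110, 233, 78.7, and 53.1 in J1 (log2 difference 0.23, SE 0.19, adjusted p = 0.471). The deleted segment of the gene is not given in the sources used here, and the values do not check these labels.

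Of 48 leading genes tested, 5 were higher in the libraries labelled Eed null at an adjusted p under 0.05 and 0 lower (12 and 0 at an unadjusted p under 0.05, 4 and 0 by edgeR on recovered reads), where 8.42% of all genes were higher and 3.62% lower. Over all genes the balance of directions depended on the tool, with 1333 higher and 573 lower by limma and 681 higher and 775 lower by edgeR. The median log2 difference of the leading genes was 0.84 and that of all genes 0.12. The 5 were Nrn1 (log2 difference 3.43, SE 0.76, adjusted p = 0.00777), Col25a1 (2.74, SE 0.61, adjusted p = 0.00842), Meis1 (1.76, SE 0.51, adjusted p = 0.0296), Mecom (1.70, SE 0.55, adjusted p = 0.0484), and Rerg (1.45, SE 0.38, adjusted p = 0.0186). Col25a1 was at 11.1, 1.78, 4.00, and 23.2 CPM at days 0, 2, 4, and 7 in libraries with the Eed null label and at 0.918, 0.188, 1.05, and 0.837 in J1. It was thus higher at all 4 days, day 0 included, when 0 of 340 single Eed null cells were members. Nrn1 was at 9.09, 2.64, 10.2, and 17.4 CPM against 0, 0.227, 0.608, and 1.35. Without day 4 the test called 2 leading genes higher, without day 2 it called 3, and with no block for the day it called 0.

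Other leading genes did not pass the test. Col3a1 was at 0.983, 0, 1.22, and 219 CPM in libraries with the Eed null label and at 0.184, 0, 0.608, and 1582 in J1 (log2 difference −0.22, SE 1.01, adjusted p = 0.917). Both lines were low to day 4 and high at day 7, and J1 was the higher of them at that day. Prrx1 was at 0.737, 0.264, 2.21, and 57.5 CPM against 0.184, 0.0747, 1.43, and 6.40 (log2 difference 1.27, SE 0.68, adjusted p = 0.237), and Igfbp5 at 11.3, 5.87, 68.0, and 1032 against 1.28, 2.25, 7.80, and 791 (1.87, SE 0.80, adjusted p = 0.131). Of the lists, 24 of 33 Hox genes were higher and 0 lower (median log2 difference 2.37), with Hoxd13 at 3.81 (SE 0.59, adjusted p = 0.000949), 1 of 17 mesenchyme genes was higher (Thy1), 2 of 21 matrix genes were higher (Col4a1 and Col4a2), a share near that of all genes, and 11 of 12 p53 targets were lower. Cdkn2a (3.33, SE 0.39, adjusted p = 0.000103) and Cdkn2b (2.26, SE 0.44, adjusted p = 0.00416) were also higher.

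**Figure D5:**
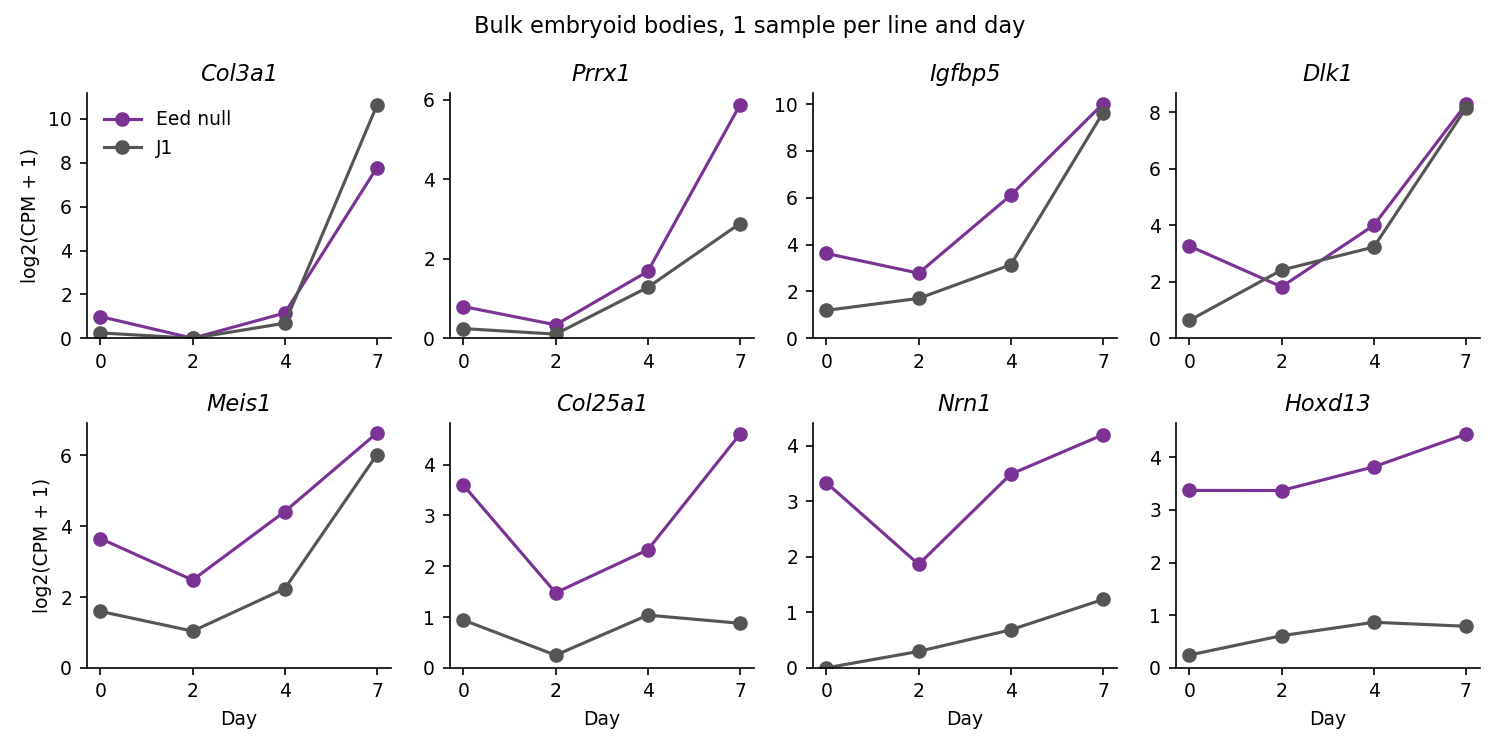
log2(CPM + 1) in bulk EBs by day for 8 genes, with 1 point per line and day for the libraries labelled Eed null and for J1. Col25a1, Nrn1, and Hoxd13 are higher in the libraries labelled Eed null at all 4 days, and Col3a1 is low in both lines to day 4 and higher in J1 at day 7 (1582 against 219 CPM).

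The leading genes were also followed in WT E14 cells directed toward lateral mesoderm. With 2 libraries per time, 48 h cells were compared with undifferentiated cells by edgeR's quasi-likelihood test where a call needed an adjusted p under 0.001 and a change of more than 1 on the log2 scale. The authors call these duplicates technical, so p-values measure the spread between such libraries. Of 33 leading genes tested, 4 rose and 0 fell (17 and 2 at an unadjusted p under 0.05, 3 and 0 by DESeq2, and 2 rose without replicate 2), where 5.57% of 18337 genes rose and 3.08% fell. They were Meis1 (log2 fold change 2.71, SE 0.25, adjusted p = 5.96e-08), with 7.91 and 7.25 CPM at 48 h and 0.976 and 1.18 in undifferentiated cells, Sned1 (2.17, SE 0.19, adjusted p = 2.51e-08), with 108 and 94.8 against 18.6 and 23.8, Irx5 (2.28, SE 0.44, adjusted p = 0.0004), and Mrc2 (1.87, SE 0.24, adjusted p = 4.69e-06). Col3a1 and Postn had 0 counts in all WT libraries of that series. Of 15 mesenchyme genes tested, 0 rose and 4 fell.

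Toward endoderm, 3 of 35 leading genes tested rose, Sned1 (log2 fold change 1.72, SE 0.14, adjusted p = 4.83e-09), Igfbp5 (5.70, SE 0.58, adjusted p = 4.67e-07), and Antxr1 (1.38, SE 0.24, adjusted p = 0.000103). Tgfbi (−2.52, SE 0.27, adjusted p = 2.25e-07) and Pdgfra (−2.86, SE 0.37, adjusted p = 2.88e-06) fell. In that series 5.19% of 19236 genes rose and 3.02% fell. The shares of leading genes that rose, 4 of 33 and 3 of 35, were small in both series, and the difference between the series was not tested.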

How the data were processed

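Single-cell libraries were made by SORT-seq with spike-in RNA. The authors aligned reads with Bowtie2 to GRCm38/mm10, counted with HTSeq, removed wells with few genes, regressed out the library, and clustered the cells. They deposited UMI counts of 15830 genes in 4949 cells, not normalized, with the cluster of each cell. No caller of doublets was run here, and the sources used here do not say that doublets were removed. All plates used the same set of well barcodes, and 30 well numbers of members occurred in 2 or more libraries, so shared barcodes do not show shared cells. Each of the 16 single-cell libraries is 1 sample.

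UMIs were summed per group and scaled to counts per 1000000, or CPM (numpy 2.4.6, pandas 2.3.3, scipy 1.17.1, and matplotlib 3.10.9 in Python 3.11.15). A gene was called at 2-fold or more where the higher group reached 20 UMI CPM. A level of 0 was set to a floor of 3 UMIs. Thinning used seed 7. No mitochondrial genes were in the table, so that the alternative total left out only the 20 most abundant genes.

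For bulk EBs, the authors quantified reads with Salmon and deposited a signal per gene, namely counts divided by a DESeq2 size factor. Whole reads were recovered in 45 of 46 columns (tolerance 0.02, 100% of values), with 3005707 to 22944105 reads, so that a gene at 1 CPM had about 3 reads in the shallowest. The repeat columns of each line were averaged by day, and limma 3.58.1 (prior count 2, trend, all lines, day as a block) was used for genes of at least 1 CPM in 4 samples. For directed differentiation, the authors deposited estimated counts from Salmon, 74.9% (mesoderm) and 73.1% (endoderm) of them whole, with 9111880 to 16898264 counts per library. They were rounded and fitted with edgeR 4.0.16 (TMM, filterByExpr, all 24 libraries of a series) in R 4.3.3. DESeq2 1.42.0 was an alternative. On simulated data 97% (mesoderm, 17509 genes), 99% (endoderm, 18465 genes), and 100% (bulk EBs, 15480 genes) of 200 changed genes were recovered. Of the unchanged genes, 0, 1, and 12 were called. The changed genes were not of low level and their changes were 2 on the log2 scale. No other effects of line, day, or time were simulated, and for bulk EBs the spread was fixed. These shares therefore do not apply to genes of low level or to smaller changes.

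Genes were named by rule: the 50 leading genes, the 10 largest ratios in each direction against cluster 4 and against other cells of the same libraries, the 5 between days (at least 50 UMI CPM and a UMI in 20% of cells of the higher group), members of the marker lists, and the targeted genes. Col1a1, Cxcl12, Itga8, Klf2, and Car2 and the genes of the subsets were chosen after their values were seen where no list holds them. A few genes that these rules name are not reported here. The cluster, the lists, and the comparisons were chosen with earlier results of these data known.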

Additional observations from a re-analysis of the deposited data

Results flagged for a closer look

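Wells that the authors did not keep are outside the comparisons above. Those of the Eed null day 10 library (182 wells, median 141 UMIs) held 10965 CPM of the 50 leading genes together, against 5869 in the wells of the WT day 10 library that were not kept and 11343 in the kept Eed null cells. Those of the Eed null day 7 library (65 wells, median 498 UMIs) held 1938 CPM, against 702 in WT at day 7. The leading genes were thus present in these wells above the WT level, and whether they come from cells or from free RNA was not tested.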

How the results depend on the processing

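Of 61 alternatives (52 planned and 9 added after seeing the data), 46 left a value within its limit and 15 moved it. For genes past 2-fold that value is the number in both directions together, so these counts do not follow changes of direction. A 4-fold threshold gave 672 genes against all other cells, 239 against cluster 4, 435 within the libraries, and 375 between days, where 2-fold gave 2144, 845, 1678, and 1812. A limit of 5 UMI CPM gave 3641, 2040, 3181, and 3250. Against cluster 4, thinning gave 1269 and the Jarid2 null cells of cluster 4 alone gave 1718. Leaving out the Eed null day 7 or day 10 library gave 1771 to 2341 genes against all other cells and 895 to 1260 against cluster 4. The share of calls that were higher went from 69.6% to 56.8% against cluster 4 without the Eed null day 10 library, from 59.5% to 48.7% within the Eed null day 10 library alone, and from 57.4% to 43.8% (thinned) and 44.5% (5 UMI CPM) between days. In bulk EBs the 5 leading genes called became 0 with no block for the day (3 higher and 0 lower at an unadjusted p under 0.05), 8 with only Eed null and J1 samples, and 2 to 5 without 1 day. In the directed series, leaving out 1 replicate gave 2 to 3 leading genes toward mesoderm and 2 toward endoderm.

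With the replicate number as a block, 4 leading genes toward mesoderm and 3 toward endoderm rose, as without it. Deviations of libraries with the same number had correlations of −0.167 and 0.0120, so the numbers do not pair the libraries. Crossing the mesoderm numbers gave 4. At this depth, 3 UMIs in the Jarid2 null members were 29.3 UMI CPM, and lower levels there were not detectable.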

Other observations

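Genes of cartilage and of contractile cells outside the heart were also higher in cluster 13 than in all other cells. Of 5 cartilage and bone genes tested, 4 were called higher and 0 lower, among them Sox9, Sox5 (69.9 against 3.16 UMI CPM), and Col2a1, the main collagen of cartilage (41.6 against 10.5). Of 6 smooth and skeletal muscle genes tested, 6 were called higher, with Acta2 at 344 against 52.04 UMI CPM, whereas cluster 4 had 759. Against cluster 4, 4 of the 5 cartilage and bone genes tested were higher, and Acta2 was the muscle gene called lower. Without the 2 deepest members, 3 of the 5 were higher than in cluster 4, 1 cartilage and bone gene (Alpl) was lower than in all other cells, and 0 muscle genes were lower than in cluster 4.

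Of 12 glycolysis and hypoxia genes tested, 1 was higher (Vegfa) and 1 lower (Pkm) than in all other cells, and 0 were called against cluster 4. Of 9 immediate early and stress genes, 4 were higher (Fos, Jun, Hspa1a, and Hspa1b) and 2 lower (5 and 2 without the 2 deepest members, with Egr1), where Hspa1a and Hspa1b are near-identical copies whose separate values are uncertain.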
